A study of Rattus norvegicus with 74 samples.

Results

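The genes described here are 10 regulators of muscle mass and muscle wasting, taken by symbol from the deposited count tables, which list 30560 genes: Mstn, Fst, Acvr2b, Fbxo32, Trim63, Foxo1, Foxo3, Igf1, Igf1r and Ddit4. All 10 were present once in each of the 3 tables, for red gastrocnemius, for mitochondria isolated from that muscle and for left ventricle. Myostatin, the product of Mstn, is a secreted brake on muscle growth that signals through activin receptors such as the one encoded by Acvr2b, and follistatin (Fst) binds and blocks it. IGF-1 acts through its receptor (Igf1r) on Akt, which keeps the transcription factors FoxO1 and FoxO3 out of the nucleus, and nuclear FoxO switches on the ubiquitin ligases atrogin-1 (Fbxo32) and MuRF1 (Trim63), the standard markers of muscle atrophy. Ddit4 encodes REDD1, an inhibitor of mTORC1 that is induced by stress and glucocorticoids.

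The animals were male Wistar Kyoto rats, sampled at 9 weeks of age, 30 of them in the libraries used here. Trained rats (ExT) began treadmill running at 5 weeks of age and kept to it for 4 weeks on 5 days a week, with sessions that grew from 20 to 60 min at up to 20 m/min, and sedentary rats (Sed) were placed on a stationary one. Both arms drank water with 8% deuterium oxide, and sampling came 24 h after the final run, so no sample speaks for the first hours after a run. Whole inner red gastrocnemius (SM) and immunocaptured, RNase-treated mitochondria from it (MT) came from 15 rats per arm, and left ventricle wall (LV) from 7 of those rats per arm. Each library is a separate rat within its group. Rats were 1 sex and 1 strain, which limits the groups as a model.

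Library totals were 19477976 to 39401323 counts in SM, 54645657 to 75758777 in LV and 530397 to 9988027 in MT. Levels below are counts scaled to a total of 1000000 nuclear-encoded counts per library (CPM), because genes of the mitochondrial genome took 22.1% to 35.9% of SM, 39.9% to 50.7% of LV and 12.9% to 95.4% of MT counts. Without exon lengths, levels were compared across groups for 1 gene and not between genes, apart from MT levels set beside receptor genes below. The ratio of Trim63 to Fbxo32 counts was also compared only across groups. The tissue labels matched their markers: the summed level of 7 fast-fibre genes was 113125 ± 20044 CPM (SD, n = 15) in SM Sed and 4.55 ± 1.36 (SD, n = 7) in LV Sed, and that of 7 cardiomyocyte genes 15.0 ± 6.41 and 48191 ± 3631. Training changed few genes in SM: 28 of 13570 tested passed an adjusted p of 0.05 in edgeR's quasi-likelihood test. Leaving out 1 library moved that count between 12 and 100, by over 1.5 times without any of 15 libraries: it was lower without sedentary rat 4, 7, 8, 12, 20 or 24 or trained rat 5, 6, 10, 14, 25 or 27, and higher without sedentary rat 23, 29 or 30.

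Endurance training left none of the 10 genes past the threshold in muscle or in heart. In SM 0 of 10 were called, where the background was 0.206% of all genes tested, and in LV 0 of 10 were called, with a background of 0%. At an unadjusted p under 0.05 the count was also 0 of 10 in each tissue, where 13.7% of all genes in SM and 5.9% in LV were under it, and DESeq2 called 0 of 10 in each. In simulated SM data of this size the test recovered 81% of changes of 0.5 on the log2 scale and 94.9% of changes of 1. In simulated LV data these shares were 58% and 90.8%. Of the calls made there, 3.8% in SM and 8.1% in LV were of genes that had not been altered. Each recovered share is an average over 98 to 100 altered genes. Recovery for the 10 genes themselves was not tested, and the intervals of Mstn and Fst were the widest among them.

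**Figure D1:**
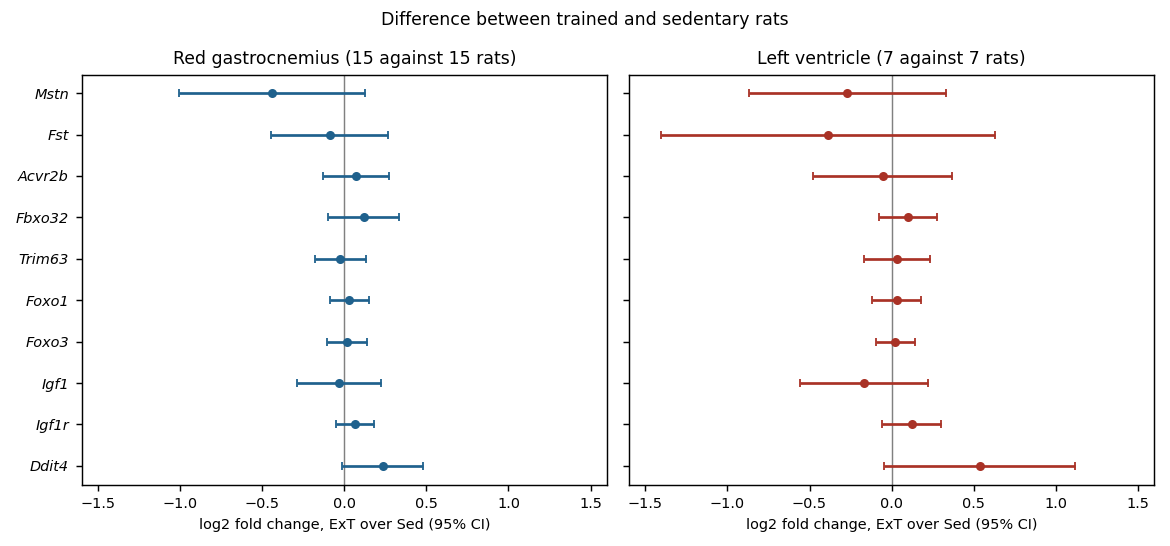
Log2 fold change of each gene in trained over sedentary rats (points) with its 95% confidence interval (bars), in red gastrocnemius on the left and left ventricle on the right. Every interval includes 0. The widest intervals belong to Mstn and Fst, and Ddit4 has the highest estimates, 0.23 in gastrocnemius and 0.53 in left ventricle.

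Mstn had the lowest estimate of the 10 in SM. Its level ran from 3.29 to 17.6 CPM with a median of 9.18 in the 15 sedentary rats, and from 2.13 to 15.96 with a median of 6.77 in the 15 trained rats. The groups overlapped over most of their range. The log2 fold change was -0.44 (SE 0.28, 95% interval -1.004 to 0.13, adjusted p = 0.49 in edgeR). In rats numbered 2 to 16 the estimate was -0.87 (SE 0.41, adjusted p = 0.23 in edgeR), and in rats 17 to 32 it was 0.03 (SE 0.33, adjusted p = 0.99 in edgeR). The test of that difference did not pass either, at 0.89 (SE 0.54, adjusted p = 0.49 in edgeR), and the numbers are not labelled as a batch. In LV, Mstn ran from 0.769 to 1.54 CPM (median 0.966) in sedentary and from 0.236 to 1.22 (median 0.863) in trained rats, a log2 difference of -0.27 (SE 0.29, adjusted p = 0.90 in edgeR). Leaving out 1 LV library moved that estimate between -0.41 and -0.11.

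The other genes of the myostatin axis were as close between the arms. Fst, the extracellular antagonist, had medians of 4.08 CPM (2.03 to 6.41) in SM Sed and 3.35 (1.94 to 7.28) in SM ExT, and the ranges overlapped almost fully. Its log2 fold change was -0.09 (SE 0.18, adjusted p = 0.86 in edgeR). Acvr2b, the receptor, ran from 6.09 to 9.46 CPM (median 8.01) in SM Sed and from 5.98 to 12.3 (median 8.68) in SM ExT, a difference of 0.07 on the log2 scale (SE 0.10, adjusted p = 0.79 in edgeR). The receptor's training estimate was -0.21 (SE 0.14) in rats 2 to 16 and 0.29 (SE 0.10) in rats 17 to 32, and the difference of 0.49 (SE 0.17) had an unadjusted p of 0.0061 and an edgeR adjusted p of 0.24. Beside Acvr2b, Fst was the only gene of the 10 with an unadjusted p under 0.05 for that difference (0.68, SE 0.33, adjusted p = 0.38 in edgeR). These 2 of 10 stand beside 12.8% of all genes under 0.05 unadjusted, and 0% of all genes were called.

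Neither atrophy ligase passed the test. Fbxo32 ran from 89.3 to 198 CPM (median 129) in SM Sed and from 111 to 204 (median 151) in SM ExT, with a log2 fold change of 0.12 (SE 0.11, 95% interval -0.10 to 0.34, adjusted p = 0.66 in edgeR). Trim63 ran from 138 to 191 (median 155) in SM Sed and from 112 to 240 (median 158) in SM ExT. Its log2 fold change was -0.02 (SE 0.08, 95% interval -0.18 to 0.13, adjusted p = 0.92 in edgeR). Trained rats held both the lowest and the highest Trim63 value of the 30. The 95% intervals of the heart were of similar width, -0.07 to 0.28 for Fbxo32 and -0.17 to 0.23 for Trim63.

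The FoxO factors that drive these ligases had some of the narrowest intervals. Foxo1 had medians of 32.5 CPM (25.2 to 42.5) in SM Sed and 33.6 (28.3 to 40.9) in SM ExT, with a log2 fold change of 0.03 (95% interval -0.09 to 0.15, adjusted p = 0.86 in edgeR). Foxo3 had medians of 29.04 (23.3 to 39.5) and 31.4 (26.4 to 39.4), with a log2 fold change of 0.02 (95% interval -0.10 to 0.14, adjusted p = 0.93 in edgeR). In LV the estimates were 0.03 for Foxo1 (95% interval -0.12 to 0.18) and 0.02 for Foxo3 (95% interval -0.09 to 0.14).

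On the growth side, Igf1 ran from 24.5 to 59.0 CPM (median 35.0) in SM Sed and from 26.8 to 63.1 (median 36.9) in SM ExT. The 2 ranges nearly coincided, and the log2 fold change was -0.03 (SE 0.13, adjusted p = 0.93 in edgeR). Igf1r ran from 19.3 to 31.1 (median 25.2) and from 18.7 to 33.2 (median 27.04), a difference of 0.06 on the log2 scale (SE 0.06, adjusted p = 0.65 in edgeR). In LV, Igf1 ran from 41.8 to 90.5 (median 65.2) in sedentary and from 40.9 to 76.9 (median 48.9) in trained rats, a log2 difference of -0.17 (SE 0.18, adjusted p = 0.90 in edgeR).

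Ddit4 had the highest estimate of the 10 in both tissues. In SM it ran from 6.77 to 21.5 CPM (median 15.0) in sedentary and from 10.7 to 22.7 (median 15.96) in trained rats, and in LV from 1.49 to 3.87 (median 2.57) and from 2.19 to 6.99 (median 3.36). The ranges overlapped in each tissue. The log2 fold change was 0.23 in SM (SE 0.12, 95% interval -0.01 to 0.48, adjusted p = 0.39 in edgeR) and 0.53 in LV (SE 0.27, 95% interval -0.05 to 1.12, adjusted p = 0.80 in edgeR). Over the 14 LV libraries, leaving out 1 at a time moved the LV estimate between 0.32 and 0.65.

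The training difference was not shown to differ between heart and muscle for any of the 10: the interaction estimates ran from -0.45 for Fst to 0.18 for Ddit4, 0 of 10 passed in edgeR with a background of 0%, and 0 of 10 had an unadjusted p under 0.05, beside 4.57% of all genes. DESeq2 also called 0 of 10.

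Genes around these 10 gave no calls either. Of 96 genes in 7 lists of their pathways, 91 were tested in each tissue, and 0 passed in SM or in LV by edgeR. At an unadjusted p under 0.05 there were 14 in SM and 6 in LV, shares close to the 13.7% and 5.9% of all genes. The median log2 fold change over a list lay between -0.02 and 0.03 in SM for each of the 7, beside -0.01 over all genes. In SM the smallest p in the list of FoxO factors and atrophy-linked genes was that of Cdkn1a, the cell cycle inhibitor p21, at -0.53 (SE 0.13, adjusted p = 0.064 in edgeR), followed by Klf15, a glucocorticoid-induced transcription factor, at 0.24 (adjusted p = 0.17). In the clock list they were Npas2 at -0.48 (SE 0.13, adjusted p = 0.090 in edgeR) and Per3 at 0.34 (adjusted p = 0.18). In the myostatin and activin list they were Inhbb, which encodes an activin subunit, at 0.42 (adjusted p = 0.22 in edgeR), and Smad3 at -0.06 (adjusted p = 0.62). For the IGF-1 and Akt list they were Igfbp3 at 0.26 (adjusted p = 0.17 in edgeR) and Igfbp7 at 0.12 (adjusted p = 0.44), both encoding secreted binding proteins of the IGF-binding protein family. Ddit4l, the paralog of Ddit4, was at 0.27 (adjusted p = 0.22 in edgeR) and Mtor at 0.08 (adjusted p = 0.37). The glucocorticoid receptor gene Nr3c1 was at -0.12 (adjusted p = 0.18 in edgeR) and Per1 at -0.34 (adjusted p = 0.44). Among the other muscle ubiquitin ligases the smallest p belonged to Stub1 at 0.11 (adjusted p = 0.22 in edgeR) and Trim55 at -0.13 (adjusted p = 0.24).

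In LV the same rule named Foxo4 at 0.27 and Klf15 at 0.23, Tef at 0.52 and Per3 at 0.52, Wfikkn2 at -0.35 and Gdf11 at 0.18, Pdpk1 at 0.08, Tsc2 at 0.19 and Mtor at 0.11, Trim54 at 0.12 and Asb2 at 0.15, and Fkbp5 at 0.57 and Zbtb16 at 0.16, as log2 fold changes of ExT over Sed. Their edgeR adjusted p ran from 0.80 to 0.93. Fkbp5 is a classic target of the glucocorticoid receptor, as are Klf15 and Ddit4, and all 3 estimates in LV were above 0 without passing. These 3 were singled out by a small p or a high estimate in the same data. The 8 tested genes of the glucocorticoid list, which holds Fkbp5 but not Klf15 or Ddit4, had a median of 0.02.

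The heart differed from red gastrocnemius in 8 of these 10 genes in each arm, all 8 lower, which is near the share of all genes called in either direction, 78.7% (Sed) and 79.3% (ExT). Mstn, Fst, Acvr2b, Trim63 and Ddit4 were lower in LV than in SM of the same 7 rats, in sedentary and in trained animals alike, under all 9 settings in each arm, as were 20.6% of the 13928 genes tested in every one of these fits. With trimmed-mean (TMM) scaling, 38.6% (Sed) and 39.5% (ExT) of all genes were lower in LV. Kit and RNA input also differed, since LV libraries were made from 100 ng with TruSeq Ribo-Zero and SM libraries from 50 ng with Zymo-Seq RiboFree, so tissue and library preparation cannot be told apart. In bulk tissue, fewer cells of a type and less RNA per cell cannot be told apart either.

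**Figure D2:**
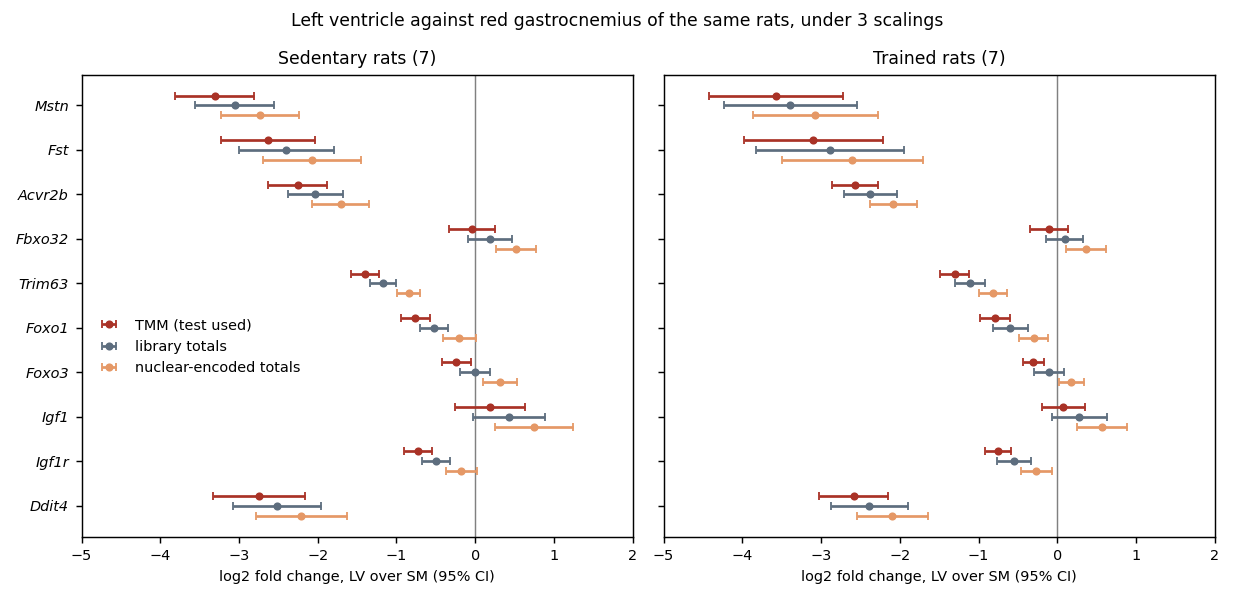
Log2 fold change of left ventricle over red gastrocnemius of the same 7 rats per arm (points) with 95% confidence intervals (bars), under TMM, library totals and nuclear-encoded totals. Mstn, Fst, Acvr2b, Trim63 and Ddit4 lie left of 0 under all 3 scalings, while Fbxo32 and Foxo3 change side.

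All 3 genes of the myostatin axis were lower in heart. Mstn ran from 0.769 to 1.54 CPM in LV Sed and from 3.74 to 11.7 (median 7.28) in SM of the same rats, and was lower in LV in 7 of 7 rats of each arm. The log2 fold change was -3.31 (SE 0.24, adjusted p = 2.51e-10 in edgeR) in sedentary and -3.57 (SE 0.40, adjusted p = 5.22e-07 in edgeR) in trained rats. Its antagonist Fst ran from 0.474 to 2.04 CPM (median 0.737) in LV Sed and from 2.63 to 6.41 (median 4.08) in SM, without overlap. The fold change of Fst was -2.63 (SE 0.28) in sedentary rats and -3.10 (SE 0.41) in trained rats, and 1 trained heart, that of rat 27, held a single Fst count. Acvr2b ran from 1.55 to 3.58 CPM (median 2.48) in LV Sed and from 6.88 to 9.39 (median 8.16) in SM, also without overlap. Its log2 fold change was -2.25 (SE 0.18) in sedentary and -2.56 (SE 0.14) in trained rats. Of the other 15 tested genes of that pathway, 5 were higher, 6 were lower and 4 did not pass in sedentary rats (median log2 fold change -0.01, beside 0.04 over all genes).

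Ddit4 was the fourth gene with a large difference. It ran from 1.49 to 3.87 CPM in LV Sed and from 6.77 to 21.5 (median 11.2) in SM of the same rats, and from 2.19 to 6.99 against 12.1 to 21.0 (median 15.96) in trained rats. Neither arm overlapped. The log2 fold change was -2.75 (SE 0.28, adjusted p = 1.81e-07 in edgeR) in sedentary and -2.58 (SE 0.21, adjusted p = 4.40e-09 in edgeR) in trained rats. The window from 250 bases before to 50 after the start of Ddit4 (RefSeq, build GRCr8, chr20:28436988-28437287, minus strand) is shown because Ddit4 is a known glucocorticoid target, and it held no match to the glucocorticoid receptor core AGAACA, the FoxO core GTAAACA or the Smad box CAGAC on either strand:
Ddit4: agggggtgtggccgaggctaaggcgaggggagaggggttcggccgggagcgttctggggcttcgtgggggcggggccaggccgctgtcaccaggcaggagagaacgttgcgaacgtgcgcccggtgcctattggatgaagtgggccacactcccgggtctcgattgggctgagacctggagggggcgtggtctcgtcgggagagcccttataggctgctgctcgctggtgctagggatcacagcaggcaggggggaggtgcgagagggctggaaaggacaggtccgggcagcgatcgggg

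The 2 atrophy ligases parted between the tissues. Trim63 ran from 74.3 to 101 CPM (median 84.4) in LV Sed and from 138 to 167 (median 152) in SM of the same rats, and from 71.4 to 100 (median 85.2) against 129 to 178 (median 145) in trained rats. It was lower in LV in 7 of 7 rats of each arm, with no overlap. The log2 fold change was -1.40 (SE 0.09, adjusted p = 1.16e-11 in edgeR) in sedentary and -1.30 (SE 0.09, adjusted p = 5.48e-11 in edgeR) in trained rats. Fbxo32 ran from 159 to 216 CPM (median 191) in LV Sed and from 99.5 to 198 (median 129) in SM, and from 178 to 240 (median 190) against 111 to 204 (median 151) in trained rats. These ranges overlapped. With TMM its log2 fold change was -0.05 (SE 0.14, adjusted p = 0.76 in edgeR) and -0.11 (SE 0.12, adjusted p = 0.39 in edgeR), while with nuclear-encoded totals it was higher in LV, at 0.52 (adjusted p = 7.04e-04 in edgeR) and 0.37 (adjusted p = 0.0093).

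A ratio within a library does not depend on the scaling. Trim63 counts divided by Fbxo32 counts were 1.27 ± 0.30 (SD, n = 15) in SM Sed, 1.11 ± 0.23 (SD, n = 15) in SM ExT, 0.454 ± 0.052 (SD, n = 7) in LV Sed and 0.432 ± 0.030 (SD, n = 7) in LV ExT. The highest LV value, 0.530 in sedentary and 0.473 in trained rats, was below the lowest SM value of the same rats, 0.843 and 0.655. The ratio was lower in LV in 7 of 7 rats of each arm, by 1.39 and 1.22 on the log2 scale. A two-sided exact permutation test gave p = 5.83e-04 in each, the smallest it can give with 7 against 7. That test shuffled the libraries as if independent and did not use the pairing of LV with SM by rat. The ratio was chosen after the levels of both ligases had been seen, so its p is no separate support for the difference. How often other pairs of genes part as fully between LV and SM was not tested. Between the arms the ratio differed by -0.18 on the log2 scale in SM (two-sided permutation test, p = 0.14) and by -0.07 in LV (two-sided exact permutation test, p = 0.38). The ratio ran from 0.655 to 1.98 over the 30 SM libraries and from 0.383 to 0.530 over the 14 LV libraries.

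**Figure D3:**
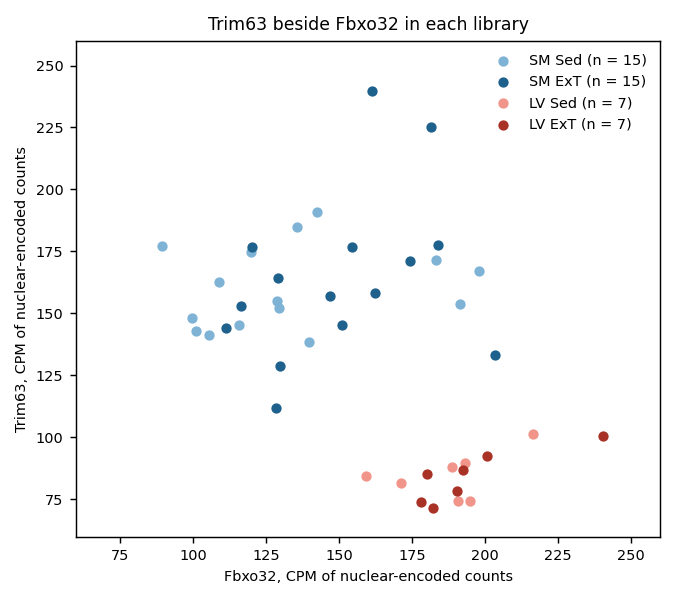
Trim63 level against Fbxo32 level in each gastrocnemius (blue) and left ventricle (red) library, both in CPM of nuclear-encoded counts. The 14 heart libraries hold 71.4 to 101 CPM of Trim63 and 159 to 240 of Fbxo32, and the 30 muscle libraries hold 112 to 240 of Trim63 and 89.3 to 204 of Fbxo32.

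The Trim63 promoter is shown because the gene is a known joint target of FoxO and the glucocorticoid receptor. In the window from 250 bases before to 50 after its start (RefSeq, build GRCr8, chr5:151816986-151817285, plus strand), a match to the glucocorticoid receptor core AGAACA starts at -211 and a match to the FoxO core GTAAACA at -205, both on the minus strand and directly adjoining. The capitals mark these 2 matches:
Trim63: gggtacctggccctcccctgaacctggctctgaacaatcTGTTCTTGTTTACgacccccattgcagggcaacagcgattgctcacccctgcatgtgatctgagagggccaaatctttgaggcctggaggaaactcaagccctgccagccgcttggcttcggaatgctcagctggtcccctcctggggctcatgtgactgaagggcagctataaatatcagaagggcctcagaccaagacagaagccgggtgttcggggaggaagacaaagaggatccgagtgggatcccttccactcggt
A Smad box, CAGAC, starts at -22. Of the 10 genes, 6 were in the promoter table. The FoxO core was found in 1 of the 6 and in 3.78% of 33469 promoters of the same length, the glucocorticoid receptor core in 2 (Trim63 and Igf1) and in 20.7%, and the Smad box in 2 (Trim63 and Foxo1) and in 50.1%, each counted on both strands. These matches are descriptions of letters and not of binding.

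The FoxO factors and the IGF-1 pair differed by less than 1 on the log2 scale between the tissues. Over the 9 settings in each arm Foxo1 and Igf1r were always lower and Igf1 always higher in LV, passing or not, while Foxo3 changed side. Foxo1 ran from 24.2 to 32.7 CPM in LV Sed and from 25.2 to 42.5 in SM, with log2 fold changes of -0.76 (SE 0.09) and -0.79 (SE 0.09) in the 2 arms with TMM. Igf1r was at -0.73 (SE 0.09) and -0.75 (SE 0.08). With nuclear-encoded totals the estimates in sedentary rats were -0.20 for Foxo1 (adjusted p = 0.068 in edgeR) and -0.18 for Igf1r (adjusted p = 0.094), and in trained rats, where both passed, -0.30 (adjusted p = 0.0030) and -0.26 (adjusted p = 0.012). Foxo3 was lower with TMM, at -0.24 (adjusted p = 0.017 in edgeR) and -0.30 (adjusted p = 1.99e-04), but higher with nuclear-encoded totals, at 0.31 (adjusted p = 0.0094) and 0.18 (adjusted p = 0.034). Igf1 did not pass with TMM, at 0.19 (SE 0.21) and 0.08 (SE 0.13), and was higher in LV with nuclear-encoded totals, at 0.75 (adjusted p = 0.0076 in edgeR) and 0.57 (adjusted p = 0.0025). Nuclear-encoded totals raised every estimate by about 0.56 in sedentary and 0.48 in trained rats, and raised the share of higher genes among all those called from 50.9% to 74.6% and from 50.1% to 71.7%.

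**Figure D4:**
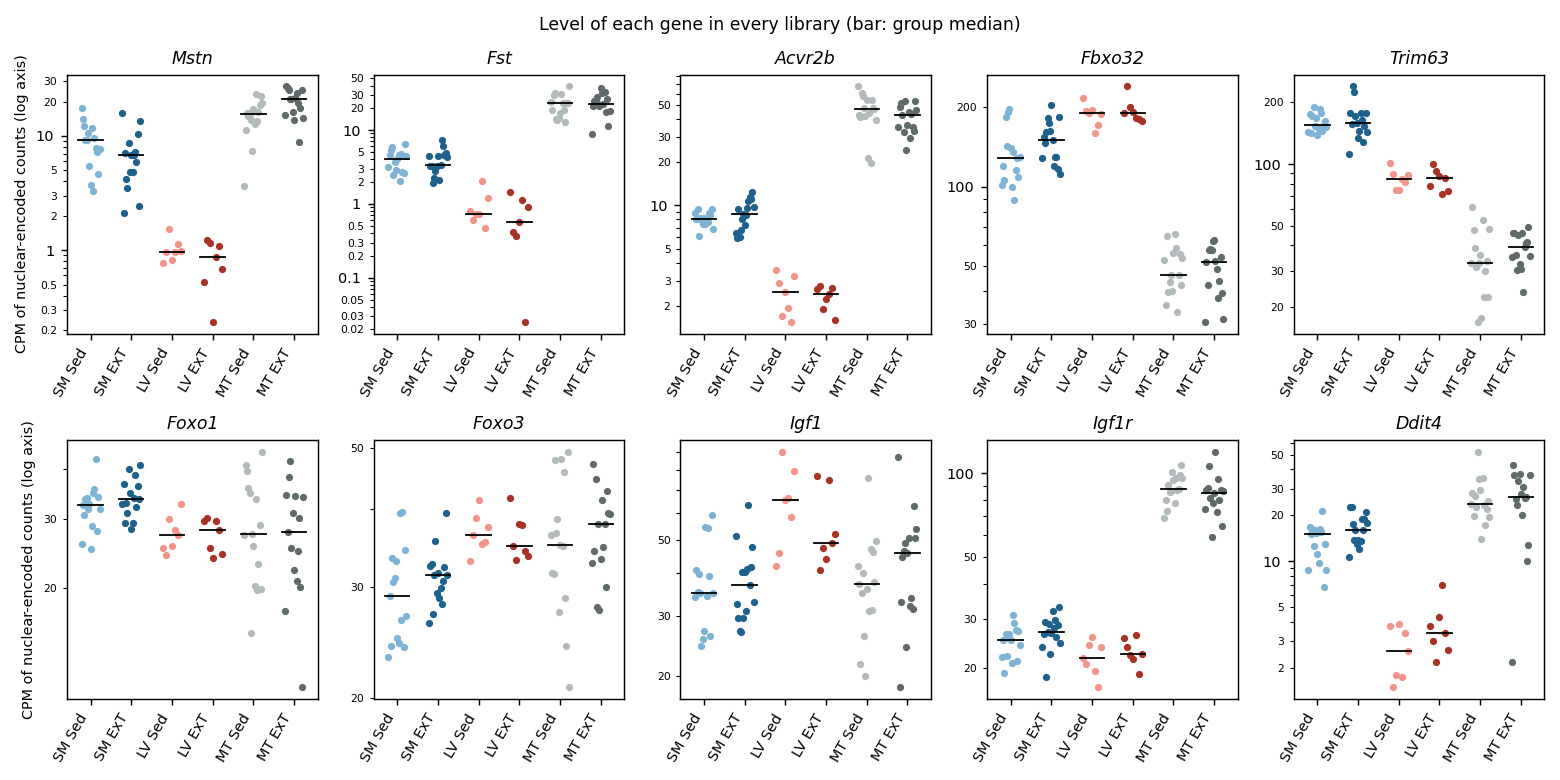
Level of each gene in every library, in CPM of nuclear-encoded counts on a log axis, for red gastrocnemius (SM), left ventricle (LV) and isolated mitochondria (MT) of sedentary and trained rats. Points are libraries and bars are group medians. Mstn, Fst, Acvr2b, Trim63 and Ddit4 sit lower in LV than in SM, and sedentary and trained libraries overlap in every panel.

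Within red gastrocnemius, 7 of the 10 genes went with at least 1 list of cell type markers by all 3 measures used. Across the 30 SM libraries, with the arm mean removed, each gene was set beside the summed level of 9 marker lists, an analysis added after the data were seen. Of 90 relations, 27 passed a Benjamini-Hochberg adjusted permutation p of 0.05 by Pearson's r, 18 by Spearman's rho and 16 by r on TMM-scaled CPM, and 11 passed all 3. The share of all genes that pass with such lists was not worked out, so these counts are not shown to be particular to the 10 genes. What part a differing cell makeup has in these relations was not tested.

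Mstn and Fbxo32 went opposite ways with slow-fibre markers. Mstn rose with the 7 fast-fibre genes (r = 0.72, adjusted permutation p = 2.25e-04, and rho = 0.74) and fell as the 8 slow-fibre genes rose (r = -0.59, adjusted permutation p = 0.0067, and rho = -0.64). Without the 2 rats farthest from the median the values of r were 0.64 and -0.61. Within rats 2 to 16 and 17 to 32 the fast-fibre r was 0.53 and 0.78. Fbxo32 rose with the slow-fibre genes (r = 0.62, adjusted permutation p = 0.0043, and rho = 0.59). This r was 0.75 and 0.77 within the rat ranges and 0.61 without the 2 farthest rats. With the fast-fibre genes Fbxo32 had r = -0.48 (adjusted permutation p = 0.034), which fell short on TMM-scaled CPM at -0.23 (adjusted permutation p = 0.38). The fast-fibre sum was 113125 ± 20044 CPM (SD, n = 15) in SM Sed and 101764 ± 12165 (SD, n = 15) in SM ExT, and the slow-fibre sum 18849 ± 10585 and 24454 ± 9375, with 0 of 7 and 0 of 8 genes called between the arms. The slow-fibre sum ranged from 6072 to 40297 CPM over the 30 pieces of muscle. Fibre markers moved with Mstn and Fbxo32 from rat to rat, and their part in the training estimates above was not tested.

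The secreted factors Igf1 and Fst went with fibroblast markers. For Igf1 r was 0.73 (adjusted permutation p = 2.25e-04, rho = 0.64) with the 6 fibroblast genes and 0.58 (adjusted permutation p = 0.0075, rho = 0.56) with the 6 immune genes. For Fst r was 0.63 (adjusted permutation p = 0.0029, rho = 0.68) with the fibroblast genes. Without the 2 farthest rats the 3 values were 0.65, 0.46 and 0.64. Within rats 2 to 16 and 17 to 32 the fibroblast r was 0.53 and 0.83 for Igf1 and 0.52 and 0.70 for Fst.

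Foxo3, Igf1r and Ddit4 went with endothelial markers. With the 6 endothelial genes r was 0.79 for Foxo3 (adjusted permutation p = 2.25e-04, rho = 0.75), 0.74 for Igf1r (adjusted permutation p = 2.25e-04, rho = 0.74) and 0.60 for Ddit4 (adjusted permutation p = 0.0063, rho = 0.70). Without the 2 farthest rats these were 0.75, 0.74 and 0.52, and within the rat ranges they ran from 0.58 to 0.85. Foxo1 reached 0.53 (adjusted permutation p = 0.022), which fell short on TMM-scaled CPM at 0.24 (adjusted permutation p = 0.38). Trim63 passed all 3 measures with none of the 9 lists, and neither did Acvr2b. The nerve and Schwann cell list gave the last 2 of the 11, with r of -0.51 for Mstn and -0.50 for Fst.

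**Figure D5:**
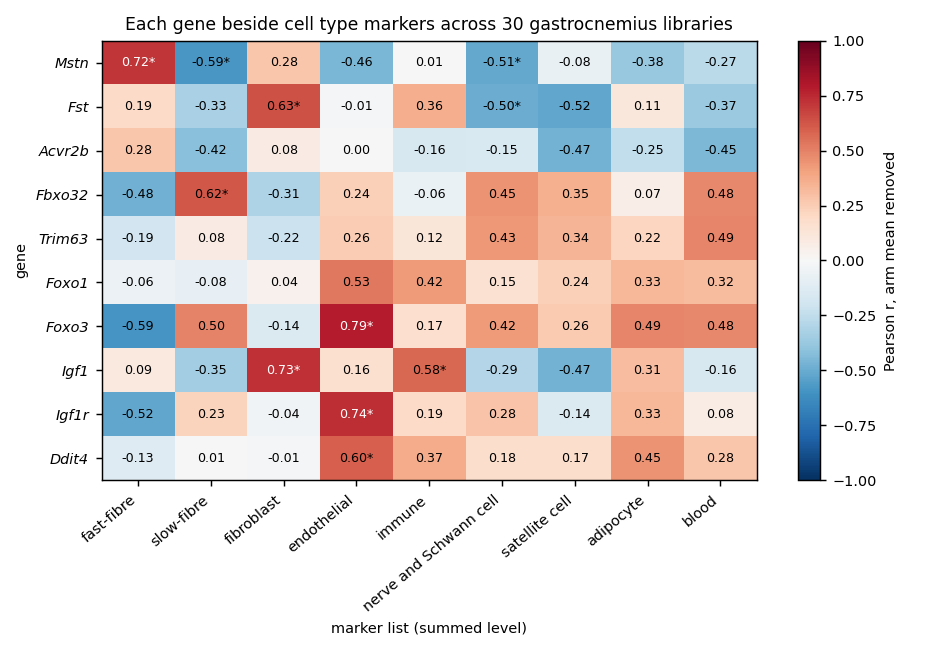
Pearson r between each gene and the summed level of each marker list over the 30 gastrocnemius libraries, arm mean removed. Red is positive, blue is negative, and an asterisk marks the 11 relations that passed by r, by rho and on TMM-scaled CPM. Fast-fibre markers stand out for Mstn at 0.72 and endothelial markers for Foxo3 at 0.79.

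Among the 10 genes themselves, 6 of 45 pairs passed by r and 9 by rho. The share among pairs of other genes was not worked out, so these counts are not shown to be particular to the 10. Foxo3 went with Igf1r (r = 0.65, adjusted permutation p = 0.0024), with Ddit4 (r = 0.65, adjusted permutation p = 0.0024) and with Foxo1 (r = 0.57, adjusted permutation p = 0.0093). Foxo1 went with Ddit4 (r = 0.58, adjusted permutation p = 0.0093) and Fst with Igf1 (r = 0.65, adjusted permutation p = 0.0024). Fbxo32 fell as Igf1 rose (r = -0.50, adjusted permutation p = 0.035). Without the 2 farthest rats r was 0.60, 0.58, 0.44, 0.50, 0.56 and -0.38 in that order, and Foxo3 with Foxo1 and Fbxo32 with Igf1 no longer passed (adjusted permutation p of 0.10 and 0.14). By rho but not by r, Fbxo32 went with Foxo3 (rho = 0.47, adjusted permutation p = 0.044, against 0.12 by r). So did Igf1r with Ddit4 (rho = 0.54, adjusted permutation p = 0.029), and Mstn fell as Fbxo32 rose (rho = -0.51, adjusted permutation p = 0.032). The 2 atrophy ligases did not pass as a pair (r = 0.27, adjusted permutation p = 0.29), nor did either of them with Foxo1.

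Over the same 30 libraries, the genes most like each of the 10 were sought among 9456 named genes of at least 5 CPM. Mstn lay closest to Camk2d (r = 0.90) and Tpm1 (r = 0.88), and Foxo3 to Klf9 (r = 0.87) and Nckap5l (r = 0.86). Igf1 lay closest to Olfml1 (r = 0.85) and Pros1 (r = 0.83), and Igf1r to Camkk2 and Trim56 (r = 0.83 each). Fbxo32 lay closest to Mfn2, a mitochondrial fusion gene (r = 0.79), and Ndrg2 (r = 0.77). Trim63 lay closest to Ell (r = 0.74) and Abra (r = 0.72), and Acvr2b to Tln2 and Adcy9 (r = 0.79 each). Foxo1 lay closest to Bahd1 (r = 0.79) and Wasf2 (r = 0.77), and Ddit4 to Tnfrsf1b (r = 0.78) and Ace (r = 0.77). Fst, under 5 CPM, was not compared.

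In SM, rats 17 to 32 did not differ from rats 2 to 16 in any of the 10 by edgeR (0 of 10 called, background 12.3%). At an unadjusted p under 0.05 there were 3, beside 27% of all genes. Fbxo32 was at -0.28 (SE 0.10, adjusted p = 0.061 in edgeR), and DESeq2 called it at an adjusted p of 0.036. Trim63 was at -0.17 (SE 0.07, adjusted p = 0.10 in edgeR) and Igf1 at 0.25 (SE 0.12, adjusted p = 0.18 in edgeR).

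Isolated mitochondria held few counts of these genes, from 1 to 101 per gene and library. In MT the training test called 0 of 10 in edgeR (background 0%), 0 of 10 at an unadjusted p under 0.05 (background 4.73%) and 0 of 10 in DESeq2. Mstn had the highest estimate, from 3.64 to 23.3 CPM (median 15.7) in MT Sed and from 8.77 to 27.2 (median 20.9) in MT ExT, at 0.35 (SE 0.18, adjusted p = 1.00 in edgeR). The training difference was not shown to differ between MT and SM (0 of 10 called, background 0.0181%, 0 of 10 at an unadjusted p under 0.05 where 8.5% of all genes were, and 0 of 10 by DESeq2), with Mstn at 0.78 (SE 0.40, adjusted p = 0.60 in edgeR).

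Against whole muscle, the 2 ligases were lower in MT in every rat. Trim63 ran from 16.96 to 61.4 CPM (median 32.9) in MT Sed against 138 to 191 in SM Sed, and Fbxo32 from 33.5 to 65.8 (median 46.3) against 89.3 to 198. Neither overlapped, and both were lower in 15 of 15 rats of each arm. With TMM the log2 fold changes were -4.34 and -4.12 for Trim63 and -3.57 and -3.67 for Fbxo32 in the Sed and ExT arms. They stayed below 0 under all 9 settings tried in each arm, but their size depended on the setting. Trim63 ran from -4.50 to -2.19 in Sed and from -4.29 to -2.05 in ExT, and Fbxo32 from -3.72 to -1.42 and from -3.84 to -1.59. Nuclear-encoded totals raised the estimates of the 10 genes by about 2.14 in Sed and 2.06 in ExT. In all, 10 of 10 genes were called in Sed and 8 of 10 in ExT, beside backgrounds of 94.8% and 94.3%, so the count tells nothing particular to these genes. The median over all genes was 1.81 in Sed and 1.31 in ExT, and relative to it all 10 genes were negative, from -6.16 for Trim63 to -1.44 for Acvr2b and Fst in sedentary rats.

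Of the other 8 genes, Foxo1 had estimates below 0 in all 9 settings of each arm, and Fst and Acvr2b above 0 in all 8 that tested them, passing or not. Foxo1 passed in 8 of the 9 in Sed and 7 in ExT. Its CPM ranges overlapped, and it was lower in MT in 7 of 15 sedentary and 12 of 15 trained rats. Mstn, Foxo3, Igf1, Igf1r and Ddit4 changed direction with the setting. Igf1r ran from 69.1 to 107 CPM in MT Sed and from 19.3 to 31.1 in SM Sed without overlap, yet was at -0.29 (SE 0.07) with TMM and at 1.86 with nuclear-encoded totals. Genes for odorant and vomeronasal receptors took 1.66% of the nuclear-encoded counts in MT Sed and 0.0012% in SM Sed. Their median level was 9.44 CPM in MT Sed and 0 in SM Sed. The mean MT levels of Mstn, Fst, Foxo1 and Ddit4, 4 of the 10, were at or under the 95th percentile of these receptor genes, 33.8 CPM in Sed and 35.9 in ExT, and those of 10 of 10 were at or under the highest receptor gene. Gene length was not accounted for in setting these levels side by side. The part of the receptor-gene background in the values of the 10 genes was not tested.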

How the data were processed

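Counts per gene were deposited by the authors for 74 libraries: 30 of red gastrocnemius, 30 of isolated mitochondria and 14 of left ventricle. Per the submitters' processing notes the tools were FastQC 0.74, cutadapt 4.6, STAR 2.7.11a and HTSeq on build mRatBN7.2. The annotation version and the strand setting are not given in the sources used here, so reads of overlapping genes may not be separated. Per the labels, RNA input was 50 ng for SM, 10 ng for MT and 100 ng for LV.

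Counts were tested as deposited with edgeR 4.0.16 (R 4.3.3): TMM, filterByExpr, robust quasi-likelihood F tests, Benjamini-Hochberg adjustment over all genes tested, called under 0.05. Standard errors were the log2 fold change over the square root of F. Only the groups compared entered a fit; LV was set against SM of the same rats. Levels are CPM of nuclear-encoded counts, with 3 counts equal to 0.115 to 0.226 CPM in SM, 0.0713 to 0.101 in LV and 2.84 to 6.97 in MT. Correlations used log2(CPM + 0.5), 100000 permutations, and a smallest p of 1e-05.

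The fits were tested on simulated data. DESeq2 1.42.0, other scalings, no filter, the rat number as a block, rat ranges and leave-one-out were alternatives. SM, MT and LV libraries with 1 number come from the same rat per the labels; across the 14 rats the median correlation of LV with SM deviations was 0.060 for the same rat and -0.010 for different rats, and over the 30 rats that of MT with SM was 0.012 and 0.0017. Every pair of libraries within a group differed by more than counting noise (smallest chi-square per degree of freedom 1.20).

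The 10 genes and all lists were chosen with earlier results of these data known. The genes named beside them are, per pathway list, those called or else the 2 with the smallest p, and per gene the 2 most like it by r. One gene that this rule names in LV is not reported here. The ligase ratio, the marker relations and nuclear-encoded totals alone were chosen after seeing the data.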

Additional observations from a re-analysis of the deposited data

Results flagged for a closer look

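In 20 sets of 7 LV libraries (10 genes in each arm), 1 held a library that stood apart from the others by Dixon's test, which chance gives in about 1 of 20. The Fbxo32 level in LV ExT was 240 CPM in rat 17, where the next highest library was at 201 and the lowest at 178. The gap took 0.639 of the whole range, above the critical value of 0.568. Rat 17 also held the highest LV ExT levels of Trim63 (100.5 CPM), Acvr2b (2.76), Mstn (1.22) and Foxo1 (30.2). No difference in the training response between tissues or rat ranges passed the threshold for any of the 10 genes.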

How the results depend on the processing

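Training called 0 of 10 genes in SM, MT and LV under every setting, including each library left out of SM or LV in turn. With the replicate block (the rat number) 8 of 10 genes were called in LV against SM in each arm and 10 and 8 of 10 in MT against SM, so that the pairing changed no count by over 1.5 times. In MT against SM, thinning to the smallest total left 6 of the 10 tested in each arm, of which 6 were called in Sed and 3 in ExT. DESeq2 called 1 of 10 between the rat ranges. Over all genes, training in SM called 28 by edgeR, 136 by DESeq2, 396 in rats 2 to 16 and 1 in rats 17 to 32, 26 to 33 with other scalings or no filter, and 12 to 100 with 1 library left out.

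The LV against SM direction reversed for Fbxo32 under library totals (0.19 in Sed, 0.092 in ExT) and nuclear-encoded totals (0.52, 0.37), and for Foxo3 under nuclear-encoded totals (0.31, 0.18). Foxo3 lost its call under library totals (-0.00, -0.11). The MT against SM direction reversed under library totals for Mstn (0.25 in Sed, 1.09 in ExT), Igf1r (1.35, 1.27) and Ddit4 (0.38, 0.36). Under nuclear-encoded totals it reversed for Mstn (0.81, 1.54), Foxo3 (0.30, 0.27), Igf1 (0.069, 0.22), Igf1r (1.86, 1.66) and Ddit4 (0.96, 0.70). Thinning reversed Igf1r (1.39, 1.73) in both arms and Foxo3 (0.33) and Igf1 (0.036) in ExT, and in Sed Igf1r also reversed under RLE (0.11) and DESeq2 (0.12). Among all genes called in MT against SM, the share higher was 65.1% and 62.9% with TMM, 86.2% and 86.5% with library totals and 90.1% and 89.6% with nuclear-encoded totals. In LV against SM it was 50.9% and 50.1% with TMM and 62.7% and 59.96% with library totals.

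Some training estimates changed sign without a call, most of them near 0, but also that of Mstn in SM (-0.44 over all rats). In SM these were, for rats 2 to 16, Acvr2b (-0.21), Trim63 (0.037), Foxo3 (-0.010) and Igf1r (-0.0029), and for rats 17 to 32 Mstn (0.029) and Fst (0.20). In MT they were Fbxo32 (0.086) and Foxo1 (0.0081) under library totals, and Fbxo32 (0.16) and Foxo3 (-0.015) in rats 2 to 16. In LV rats 17 to 32 they were Acvr2b (0.045) and Foxo3 (-0.019). Leaving out 1 library gave -0.097 to 0.019 for Igf1 and -0.078 to 0.0052 for Trim63 in SM, and in LV -0.14 to 0.069 for Acvr2b, -0.026 to 0.093 for Trim63, -0.0060 to 0.075 for Foxo1 and -0.0061 to 0.049 for Foxo3. The tissue difference in the training response of Igf1r was -0.050 under library totals, -0.0023 with nuclear-encoded genes only and -0.0049 with no filter, and that of Foxo3 between MT and SM 0.018 under RLE and 0.015 by DESeq2. Between rat ranges, Foxo1 (0.0098) and Foxo3 (0.018) reversed under library totals. The cause was not tested for any of these.

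Of the 45 gene pairs, 6 passed with a pseudocount of 0.1 or without the 2 farthest rats, 8 with the arm-by-range mean removed and 4 on TMM-scaled CPM. Without the 2 farthest rats the set changed. Acvr2b with Fbxo32 (r = -0.51, adjusted permutation p = 0.049) and Igf1r with Ddit4 (r = 0.60, adjusted permutation p = 0.017) took the place of Foxo3 with Foxo1 and Fbxo32 with Igf1. Depth limits MT, where 3 counts are 2.84 to 6.97 CPM.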
